A study of Mus musculus with 12 samples.

Results

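The miR-181 family was examined in the gastrocnemius, a calf muscle, of male C57BL/6 mice aged 6 months (young) or 24 months (aged). Small RNA was sequenced in 6 libraries per age, from 6 mice each, and the labels give neither group a transgene or a treatment. The members were the 6 mature miRNAs named mmu-miR-181a-5p, mmu-miR-181b-5p, mmu-miR-181c-5p, mmu-miR-181d-5p, mmu-miR-181a-1-3p and mmu-miR-181a-2-3p (written below without the species prefix), out of 1900 mature miRNAs in the table. They were chosen by name, and not by their values, although earlier results of these data were known. The 4 other arms of the same hairpins, miR-181b-1-3p, miR-181b-2-3p, miR-181c-3p and miR-181d-3p, were described beside them. Levels are FPKM, a read number divided by the miRNA's length and by how many reads were mapped in its library.

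A miRNA is cut from a hairpin RNA that has a 5p arm and a 3p arm, and the arm that is loaded into the silencing complex pairs with messenger RNAs mainly through its seed, bases 2 to 8. The miR-181 family is known for tuning T cell receptor signalling during lymphocyte development and inflammatory signalling in endothelium. In muscle, miR-181 is known to rise as myoblasts differentiate and to hold down a Hox gene that restrains differentiation, and miR-181a and miR-181c have been tied to the turnover and function of mitochondria.

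The mature sequences are shown because the members differ from each other by very few bases and because only some of them can be assigned to a single gene. All 10 names were matched in RefSeq (build GRCm38.p6), and the sequences are given from 5′ to 3′ with the seed in capitals.
miR-181a-5p: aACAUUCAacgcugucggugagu
miR-181b-5p: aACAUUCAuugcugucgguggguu
miR-181c-5p: aACAUUCAaccugucggugagu
miR-181d-5p: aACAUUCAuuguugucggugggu
miR-181a-1-3p: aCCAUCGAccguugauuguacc
miR-181a-2-3p: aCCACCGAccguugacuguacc
The 4 members from 5p arms share 1 seed, and no other mature miRNA among the 1679 in the RefSeq table had it. Counted from 1 at the 5′ end, miR-181b-5p differs from miR-181a-5p by A9U, C10U and A21G and is 1 base longer. miR-181d-5p differs from miR-181b-5p by C12U and is 1 base shorter, and miR-181c-5p is miR-181a-5p without the G at position 11. The 3p members differ from each other by U5C and U16C, given from miR-181a-1-3p to miR-181a-2-3p, and the first of these lies in the seed. The seed of miR-181a-1-3p is instead shared with miR-181c-3p.

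The 6 hairpins lie in 3 pairs. Mir181a-1 (chr1:137966455-137966541, plus strand) and Mir181b-1 (chr1:137966639-137966718, plus strand) are 97 bases apart within an intron of the processed transcript gene Gm4258 on the same strand. They also overlap an exon of the long noncoding RNA gene A430106G13Rik on the same strand, Mir181a-1 only by its last bases, since that gene starts at position 137966531. Mir181a-2 (chr2:38852735-38852810, plus strand) and Mir181b-2 (chr2:38853830-38853918, plus strand) are 1019 bases apart within an intron of Nr6a1, a gene for an orphan nuclear receptor that is read from the opposite strand. Mir181d (chr8:84178716-84178787, minus strand) and Mir181c (chr8:84178873-84178961, minus strand) are 85 bases apart within an intron of Nanos3 on the same strand. The positions are those of mm10, the build that the study mapped to. The hairpins of the chromosome 1 and chromosome 2 pairs are shown with both mature arms in capitals, because the same 5p arm comes from both places while the 3p arms differ.
Mir181a-1: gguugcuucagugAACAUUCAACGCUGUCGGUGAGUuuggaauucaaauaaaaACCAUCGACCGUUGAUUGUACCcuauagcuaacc
Mir181a-2: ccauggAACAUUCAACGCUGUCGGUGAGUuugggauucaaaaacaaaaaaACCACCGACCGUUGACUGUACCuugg
Mir181b-1: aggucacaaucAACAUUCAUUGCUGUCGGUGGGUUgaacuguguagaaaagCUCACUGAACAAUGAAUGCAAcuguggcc
Mir181b-2: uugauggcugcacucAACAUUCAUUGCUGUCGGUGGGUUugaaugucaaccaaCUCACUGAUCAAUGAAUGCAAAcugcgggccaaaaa
Around miR-181a-5p the hairpins share 28 bases without a break, with 1 base before and 4 bases after the mature sequence. Around miR-181b-5p they share 26 bases, with 2 bases before and 0 after. A read of the mature length therefore cannot say which gene it came from.

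Depth sets how well each member is known. Low values lay in steps of whole reads, from which each library was estimated to hold 198496 to 6243376 miRNA reads in the young group (median 421276.5) and 123084 to 7518752 in the aged group (median 1323709.5). The deepest libraries were young replicate 6 and aged replicate 3, and aged replicate 5 was the shallowest. The other 4 aged libraries were all deeper than the other 5 young ones, so depth differed with age. Of the 6 members, limma called 0 in the main fit, 0 with depth as a covariate and 0 without the deepest library of each age. These counts therefore do not show what depth did. With depth as a covariate the log2 change of miR-181a-1-3p went from -1.16 to -1.43 (limma adjusted p = 0.168). That of miR-181a-5p went from 0.05 to 0.11 and that of miR-181b-5p from -0.22 to -0.18, and the other members moved less. Across the table, 14 of 482 miRNAs tested differed between the ages (limma adjusted p under 0.05, 2.9% of those tested, with 0.622% higher and 2.28% lower in aged muscle), and the median log2 change of all 482 was 0.07.

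The tissue label was checked with miRNAs of known cell types. The 6 skeletal muscle miRNAs were all read, with a summed level of 4594296 to 7378806 FPKM in young and 4497092 to 5333858 FPKM in aged libraries, led by miR-133a-3p. The liver miRNA miR-122-5p was at 0 in all young libraries and reached at most 34.3 FPKM in an aged library. Because miR-181 is also known from blood cells and vessels, their miRNAs were summed too. Of 4 listed white blood cell miRNAs, 2 were found by name, miR-150-5p and miR-223-3p, and they came to 3975 to 7068 FPKM in young and 2976 to 9796 FPKM in aged libraries. The other 2, the arms of miR-142a, stand in the table as miR-142-3p and miR-142-5p, and with them the sums were 8449 to 19468 and 11136 to 24904 FPKM. The endothelial miR-126a arms came to 307743 to 455685 and 336491 to 382329 FPKM, and the 3 red blood cell miRNAs to 5828 to 10486 and 3022 to 10507 FPKM. The smooth muscle pair miR-143-3p and miR-145a-5p came to 3896906 to 5861645 and 4795224 to 6106709 FPKM, and the nerve pair miR-9-5p and miR-124-3p to 0 to 888 and 0 to 775 FPKM. None of the miRNAs tested from these lists of other cells was called by limma at an adjusted p under 0.05. The red blood cell miR-144-3p (log2 change -0.77) and the smooth muscle miR-145a-5p (-0.43) had an unadjusted p under 0.05, as did 12.9% of all miRNAs tested. The young and aged ranges of each sum overlapped. Nearly all of the smooth muscle sum was miR-143-3p, whose log2 change was 0.17, so that sum says little about miR-145a-5p. In whole muscle, fewer cells of a type and less RNA per cell cannot be told apart.

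The family was led by mmu-miR-181a-5p. It ranked 18 of 1900 by mean level, with a lowest, median and highest value of 186008, 269663 and 302317 FPKM in young and of 210756, 266824 and 286890 FPKM in aged libraries. The aged values all lay within the young range, and aged replicate 6 was the lowest of them. The young mean was 256913 ± 48603 FPKM (SD, n = 6) and the aged mean 262776 ± 28029 FPKM (SD, n = 6). The fitted log2 change was 0.05 (SE 0.13, limma adjusted p = 0.921), with a 95% interval that runs from a 0.860-fold to a 1.24-fold level in aged muscle. The read number behind it, 756 to 46419 per library, leaves little counting error. The log2 SD between young libraries was 0.29, where counting alone gives 0.028.

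mmu-miR-181b-5p, which has the same seed, stood at a level 12.5-fold lower than miR-181a-5p over all libraries. Its lowest, median and highest values were 16925, 20925 and 29172 FPKM in young and 16477, 18753 and 21478 FPKM in aged libraries. Young replicates 2, 4 and 5 were above every aged library, replicate 2 only narrowly, and the other 3 young libraries lay within the aged range. Its log2 change was -0.22 (SE 0.14, limma adjusted p = 0.494), and the interval runs from a 0.705-fold to a 1.04-fold level.

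mmu-miR-181c-5p had the lowest unadjusted p of the members. Its values were 7082, 9037 and 10514 FPKM (lowest, median and highest) in young and 5293, 6841 and 8249 FPKM in aged libraries. Of the young libraries only replicate 6 lay within the aged range, and 5 of the 6 young libraries lay above all aged ones. The young mean was 9061 ± 1255 FPKM (SD, n = 6) and the aged mean 6867 ± 1145 FPKM (SD, n = 6). The fitted log2 change was -0.40 (SE 0.15), a 0.757-fold level with an interval of 0.613 to 0.934. This did not pass the adjustment over the whole table (limma adjusted p = 0.189), and the unadjusted limma p was 0.0116. An unadjusted p under 0.05 was seen for 12.9% of all miRNAs tested (7.26% lower and 5.6% higher in aged muscle) and for 2 of the 6 members, both lower. With depth as a covariate the change was -0.42 (limma adjusted p = 0.190). By limma voom on the estimated reads it was -0.32 (limma adjusted p = 0.437), and the unadjusted limma p was 0.0676. The lowest aged value, of replicate 5, rested on 14 reads, and leaving that library out gave a log2 change of -0.33 (limma adjusted p = 0.278). miR-181c-5p lacks 1 base of miR-181a-5p, which stood 32.6-fold higher over all libraries. How reads with such a difference were assigned is not given in the sources used here.

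The genomic neighbour mmu-miR-181d-5p was read far less. Its values were 729, 821 and 1428 FPKM in young and 719, 850 and 1067 FPKM in aged libraries, and the groups overlapped. The level of miR-181c-5p was 8.54-fold higher than that of miR-181d-5p, although both hairpins lie 85 bases apart on the same strand. The log2 change of miR-181d-5p was -0.12 (SE 0.28, limma adjusted p = 0.908), with an interval from a 0.612-fold to a 1.38-fold level. Between 2 and 175 reads per library stood behind it, and the log2 SD between young libraries, 0.43, was no larger than the 0.47 that counting gives. miR-181d-5p is 1 substitution from the far more abundant miR-181b-5p, and how reads with a mismatch were assigned is not given in the sources used here.

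**Figure D1:**
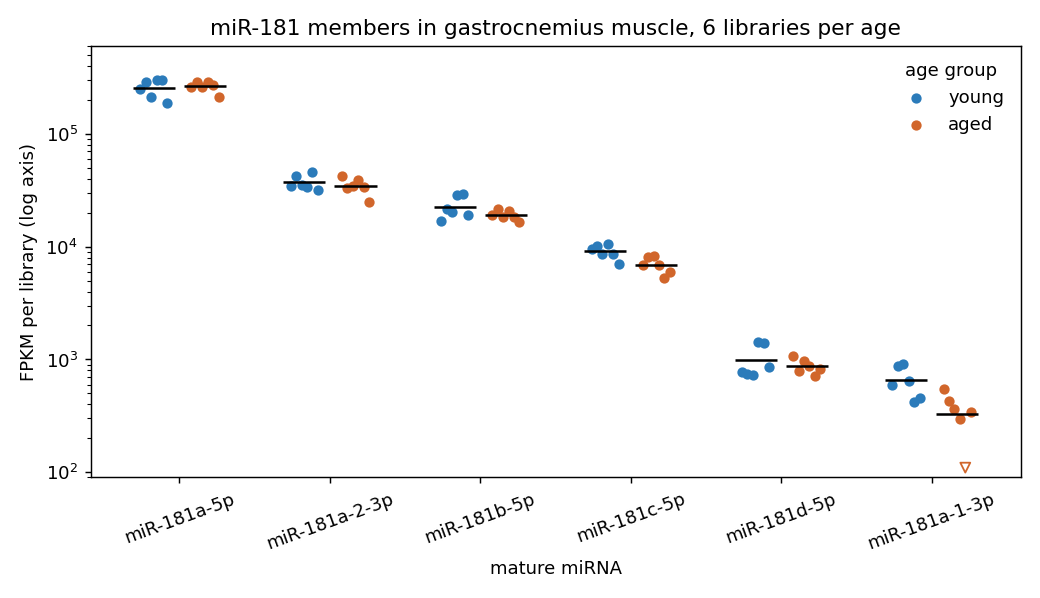
Level of the 6 miR-181 members in FPKM on a log axis, with 1 point per library, 6 young and 6 aged, and a black line at the mean. miR-181a-5p has means of 256913 and 262776 FPKM, the points of miR-181c-5p are mostly lower in aged muscle, and the open triangle at the bottom marks aged replicate 5, where miR-181a-1-3p had no read.

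Of the 3p arms, mmu-miR-181a-2-3p from chromosome 2 was the second most abundant member. Its values were 31872, 34640 and 45703 FPKM in young and 25006, 34042 and 42055 FPKM in aged libraries. The ranges overlapped, with aged replicate 6 below all young libraries and young replicate 5 above all aged ones. The log2 change was -0.11 (SE 0.13, limma adjusted p = 0.760), with an interval from a 0.769-fold to a 1.11-fold level. The level was 1.72-fold that of miR-181b-5p, and it was higher than miR-181b-5p in 12 of 12 libraries, although it is the arm opposite to miR-181a-5p and stood 7.27-fold below it.

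mmu-miR-181a-1-3p from chromosome 1 was the rarest member, 72.9-fold below miR-181a-2-3p over all libraries. Its values were 416, 620 and 917 FPKM in young and 0, 352 and 545 FPKM in aged libraries. Of the young libraries, 4 of 6 lay above every aged library, and young replicates 5 and 6 lay within the aged range. The log2 change was -1.16 (SE 0.52, limma adjusted p = 0.330), and the unadjusted limma p was 0.0342. The value of 0 came from aged replicate 5, where 1 read was worth 377 FPKM and 3 reads would give 1132 FPKM, more than the value of any other library. Leaving that library out gave a log2 change of -0.63 (limma adjusted p = 0.406). Between 3 and 66 reads per library stood behind the young values and between 0 and 62 behind the aged ones.

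**Figure D2:**
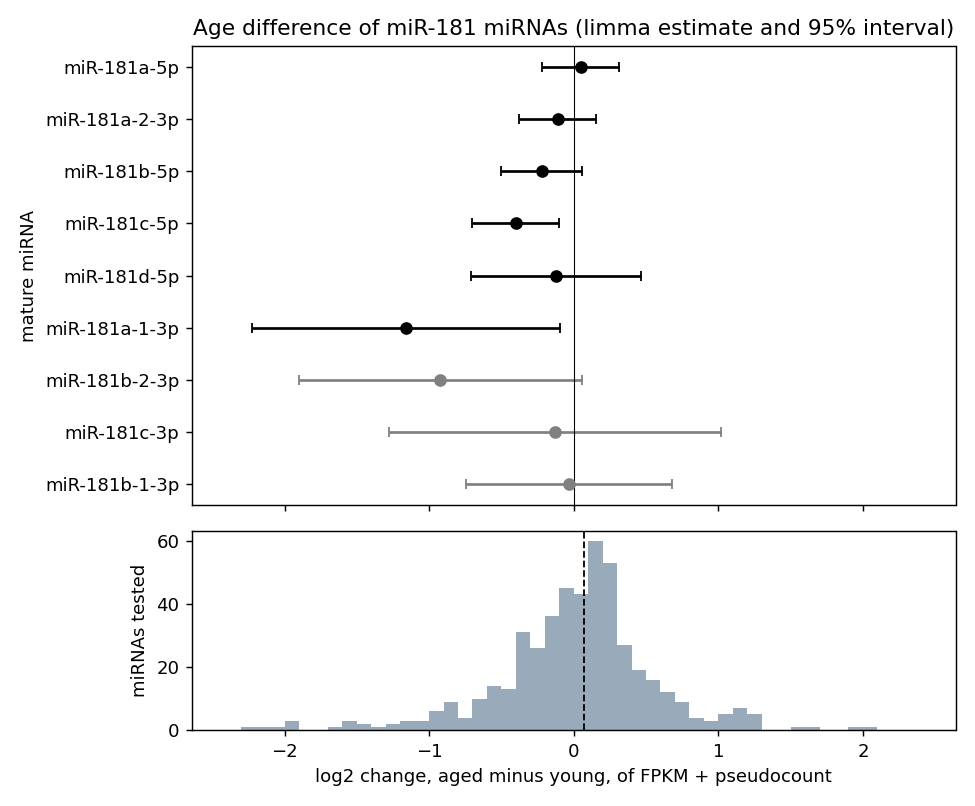
Log2 change from young to aged muscle on the log2(FPKM + 48.2) scale, with the limma estimate and its 95% interval for the 6 members (black) and for 3 other arms of the hairpins (grey), above the distribution of the change over all 482 miRNAs tested (dashed line: median, 0.07). The intervals of miR-181c-5p and miR-181a-1-3p lie below 0 before adjustment, and those of the other members include it.

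By adjusted p, 0 of the 6 members were called, and 5 of 6 had a change below 0, where 44.6% of all miRNAs tested did. The lowest unadjusted limma p among them, 0.0116, ranked 29 in the table. The median change of the members was -0.17. With an unadjusted limma p under 0.05 and a change of at least 1.5-fold in either direction, miR-181a-1-3p was the only member to pass, as did 9.75% of the miRNAs tested (5.6% lower in aged muscle). It no longer passed without aged replicate 5, young replicate 2 or young replicate 3, where the unadjusted limma p was 0.0681, 0.0691 and 0.0686. Nor did it pass with a pseudocount of 1, zeros kept as values or quantile normalization, where the unadjusted limma p was 0.0823, 0.0820 and 0.0511. With the higher alternative pseudocount the unadjusted limma p was 0.0234, but the log2 change of -0.50 was less than 1.5-fold. Ordered by level, miR-181a-5p was followed by miR-181a-2-3p, miR-181b-5p, miR-181c-5p, miR-181d-5p and miR-181a-1-3p. The first 5 kept this order within each of the 12 libraries, and the last pair did so in 10 of 12. The 4 5p arms summed to 289584 ± 53632 FPKM (SD, n = 6) in the young and 289570 ± 30050 FPKM (SD, n = 6) in the aged group. These sums were 0.680% ± 0.141 (SD, n = 6) and 0.659% ± 0.0590 (SD, n = 6) of all FPKM.

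The table gives miR-181a-5p and miR-181b-5p 1 row for each of their 2 genes, and the rows were summed here. For miR-181a-5p the first row held 48.4% to 50.9% of the reads, and the 95% Wilson interval, which covers counting error only, held 50% in 11 of 12 libraries. For miR-181b-5p the share ran from 41.1% to 60.4% and the interval held 50% in 8 of 12 libraries, with a pooled share of 48.5%. Since both rows stand for the same mature sequence, they were not read as levels of separate genes.

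**Figure D3:**
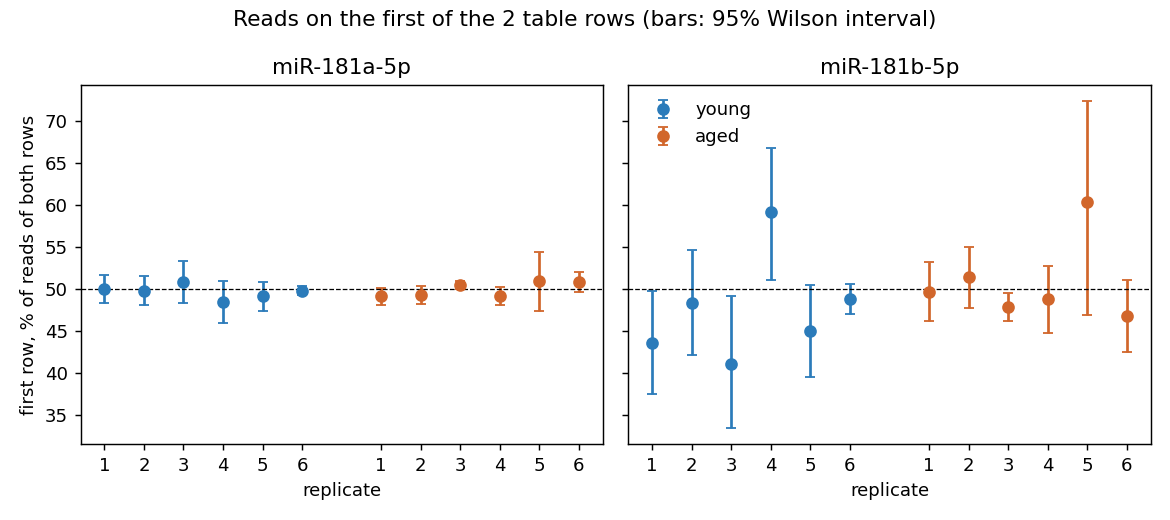
Share of the reads of miR-181a-5p (left) and miR-181b-5p (right) on the first of their 2 rows in the table, in percent, for the 6 young and 6 aged replicates, with 95% Wilson intervals and a dashed line at 50%. The shares of miR-181a-5p lie between 48.4% and 50.9%, and the interval holds 50% in 11 of 12 libraries. Those of miR-181b-5p lie between 41.1% and 60.4%, and the interval holds 50% in 8 of 12.

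The 3p arms do differ between the genes. Among the reads of both miR-181a 3p arms, those of miR-181a-1-3p made up 0.901%, 1.80% and 2.53% (lowest, median and highest) in young and 0%, 1.17% and 1.35% in aged libraries. Pooled over libraries, they were 96 reads beside 6294 of miR-181a-2-3p in young muscle and 113 beside 10230 in aged muscle, or 1.5% (Wilson interval 1.23% to 1.83%) and 1.09% (0.910% to 1.31%). These pooled intervals cover counting error only, not the spread between animals, so they do not compare the ages. Most of the pooled reads came from 1 library per age. Young replicate 6 gave 66 and 4578 of them, and aged replicate 3 gave 62 and 5834. Every young library but replicate 5 lay above all aged ones, and young replicate 5 lay below 4 of them. In the deepest libraries, the shares were 1.42% (1.12% to 1.80%) in young replicate 6 and 1.05% (0.821% to 1.35%) in aged replicate 3, and these intervals overlap. The 0 of 90 reads in aged replicate 5 allows a share of up to 4.09%. A 3p arm can be kept or lost after cutting, and the level of a 3p arm is not that of its hairpin.

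**Figure D4:**
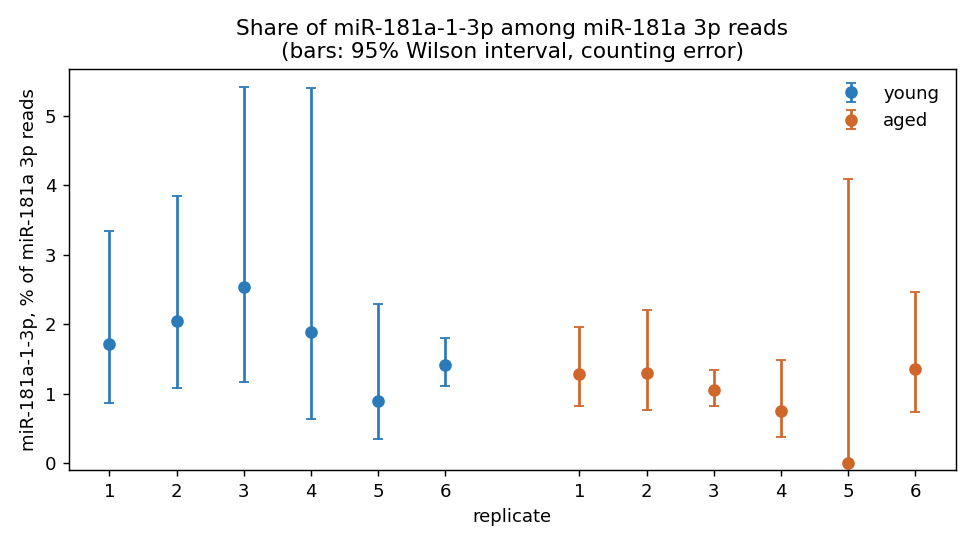
Share of miR-181a-1-3p among the reads of both miR-181a 3p arms, in percent, in each young and aged replicate, with 95% Wilson intervals for counting error. All shares lie at or below 2.53%, and the intervals of the shallow libraries span most of the range.

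The rarer arms of the other hairpins were near the limit of detection. miR-181c-3p, with 39 reads in the young group and 86 in the aged group, stood at 237 ± 126 and 244 ± 140 FPKM (SD, n = 6). Its log2 change was -0.13 (limma adjusted p = 0.955), opposite in sign to the difference of the means, and it was 0.34 without aged replicate 5, where it had no read. The arm miR-181b-2-3p had 16 and 12 reads, and its log2 change was -0.92 (limma adjusted p = 0.407). The arm miR-181b-1-3p had 2 and 3 reads, with no more than 1 in any library. For miR-181b, too, the 3p arm of chromosome 2 had more reads than that of chromosome 1 in both groups. miR-181d-3p had no read in 12 libraries, where 3 reads in the deepest one would give 18.4 FPKM.

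The scaling of a library largely cancels in a ratio of abundant members, though less so for rare arms because of the 48.2 FPKM added to both terms, and 6 ratios were tested between the ages by two-sided exact permutation. The ratio of miR-181c-5p to miR-181a-5p had the lowest p. On the log2 scale it averaged -4.81 ± 0.169 (SD, n = 6) in the young and -5.26 ± 0.244 (SD, n = 6) in the aged group, a change of -0.45 (exact permutation p = 0.00433, and 0.0260 adjusted over the 6 ratios). It was below the lowest young library in 5 of 6 aged libraries, and aged replicate 3 lay within the young range. The adjusted exact p rose to 0.0649 without young replicate 2, 3, 4 or 6 and to 0.0519 without aged replicate 5. With samples paired by replicate number it was 0.0938, from an unadjusted exact p of 0.0312 that is the smallest 6 pairs can give. The same ratio to miR-181a-5p was then taken for every miRNA tested. An exact permutation p under 0.05 was found for 11.0% of the 481 others (7.48% lower in aged muscle). By limma 2.08% were called, and miR-181c-5p was not among them (limma adjusted p = 0.183). In percent of the 5p level of the family, miR-181c-5p made up 3.17% ± 0.349 (SD, n = 6) in the young and 2.38% ± 0.372 (SD, n = 6) in the aged group.

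The other ratios did not pass the adjustment. The log2 ratio of miR-181b-5p to miR-181a-5p changed by -0.27 (exact permutation p = 0.0433, adjusted 0.0866). Young replicates 3 to 6 lay above all aged libraries, replicate 2 among them and replicate 1 below them, and without young replicate 1 the adjusted exact p was 0.0260. The log2 ratio of miR-181a-1-3p to miR-181a-2-3p changed by -1.05 (exact permutation p = 0.0390, adjusted 0.0866) and by -0.52 without aged replicate 5. Without young replicate 5 its adjusted exact p was 0.0390. The ratio of miR-181d-5p to miR-181a-5p changed by -0.17 (exact permutation p = 0.353), that of miR-181d-5p to its neighbour miR-181c-5p by 0.28 (exact permutation p = 0.190), and that of miR-181a-5p to the sum of its 3p arms by 0.17 (exact permutation p = 0.169). The smallest p this design can give is 0.00216.

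**Figure D5:**
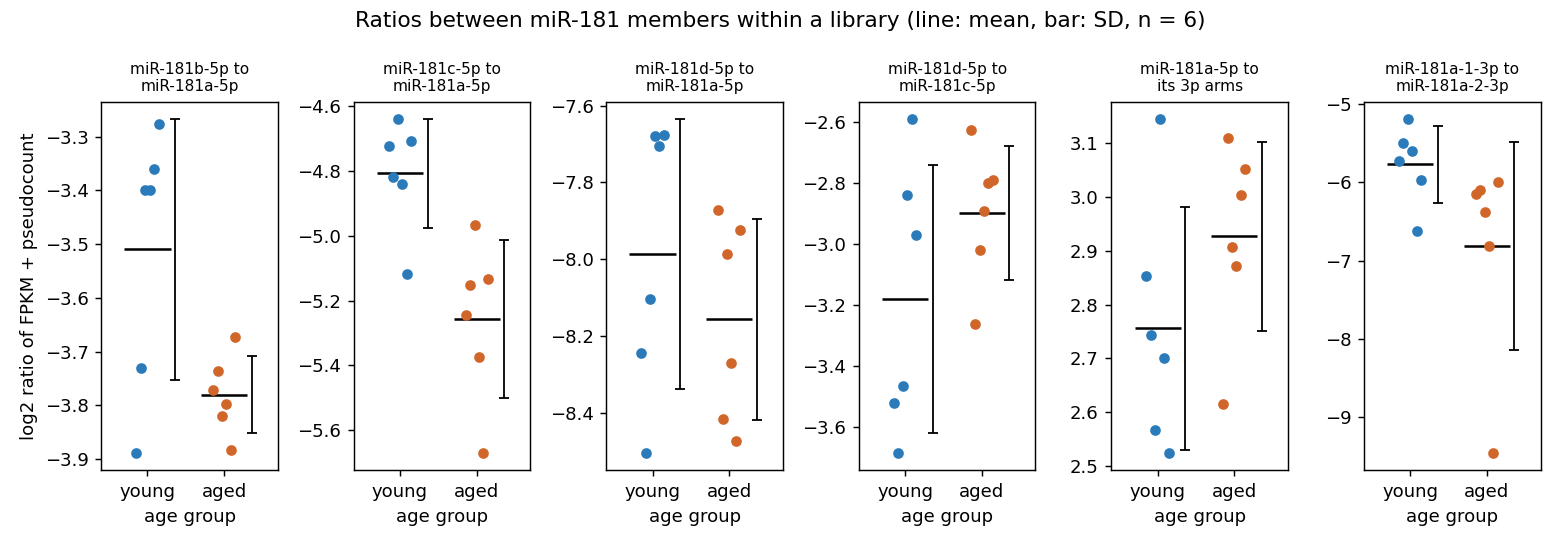
Log2 ratios between miR-181 members within each library (FPKM + 48.2 in both terms), 6 young and 6 aged, with the mean as a line and the SD as a bar to the right of it; each panel has its own axis. The ratio of miR-181c-5p to miR-181a-5p is lower in 5 of 6 aged libraries than in any young library, and the low point of the last panel is aged replicate 5.

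Members also moved together between libraries to different degrees. Over the 12 libraries, which share their scaling, Pearson's r of the log2 levels was 0.591 between miR-181a-5p and miR-181b-5p (Spearman's rho 0.783), and 0.605 without the 2 libraries farthest from the median. It was 0.339 between miR-181a-5p and miR-181c-5p (rho 0.448), 0.586 with each age's mean subtracted and 0.0906 without the 2 farthest libraries. Between the neighbours miR-181c-5p and miR-181d-5p it was 0.332 (rho 0.203), and 0.122 without the 2 farthest. The highest r, 0.738 between miR-181b-5p and miR-181d-5p (rho 0.329), became -0.138 without the 2 farthest libraries and so rested on them. Among the 216 miRNAs above 0 in all 12 libraries, the pattern of miR-181a-5p was most like that of miR-27b-3p (r = 0.791, rho 0.729), followed by miR-101a-3p (r = 0.772, rho 0.632) and miR-378c (r = 0.754, rho 0.531). With each age's mean subtracted the same 3 led, with r of 0.832 for miR-27b-3p, 0.830 for miR-378c and 0.790 for miR-101a-3p. Without the 2 farthest libraries, and with no mean subtracted, r was 0.881 for miR-27b-3p, 0.489 for miR-101a-3p and 0.519 for miR-378c. With each age's mean subtracted as well, it was 0.918, 0.501 and 0.628. These values describe the libraries and were not tested.

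The members can be set beside 25 listed miRNAs known for roles in myoblast proliferation and differentiation. Of these 22 were tested, 16 had a change above 0 and 6 below, where 267 of all 482 had one above 0, and the median log2 change was 0.19, against 0.07 over all 482. Only miR-206-3p, which promotes differentiation and marks regenerating fibres, was called (log2 change 1.54, SE 0.39, limma adjusted p = 0.0296), and 4 had an unadjusted p under 0.05, beside 2.9% called and 12.9% with such a p over the table. miR-27b-3p, whose pattern was most like that of miR-181a-5p, is also in this list.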

How the data were processed

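The deposited table, in log2 of FPKM to 2 decimals, was made by the authors, who trimmed adaptors from the small RNA reads, aligned them to mm10 by BWA (default settings), and derived FPKM for each mature miRNA by a script of their own. The deposited log2 values write a miRNA without a read as 0. The submitters' processing notes name TopHat2, which the methods give for the mRNA. Strand use and the assignment of reads that match several places are not given in the sources used here. All 12 columns were used, with groups and replicate numbers from the sample titles. The methods give 6 mice per age, so libraries were taken as animals.

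The log was undone, 0 was kept as no read, and the rows of a mature miRNA with several genomic copies were summed, which turned 2035 rows into 1900 miRNAs. The FPKM of 1 read was found per library from low values and RefSeq lengths. For values below 25 reads (3212 in all), 99.6% came within 0.15 of a whole number of reads, and 1 read of a 22-nucleotide miRNA gave 5.86 to 377 FPKM. Such reads give depth, shares and intervals only (and the voom alternative), since PCR copies are not independent molecules.

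The scale log2(FPKM + 48.2), whose pseudocount is the libraries' median of their lowest nonzero value, was fitted for the 482 miRNAs above 0 in at least 5 of 12 libraries with limma 3.58.1 in R 4.3.3 (aged against young without covariates, eBayes with a trend, two-sided, Benjamini-Hochberg at 0.05). This scale can understate changes of rare miRNAs, and a library without a read can also enlarge them. For miR-181a-1-3p the log2 change was -1.16 on this scale and -0.63 by limma voom on the estimated reads. Data were simulated with 200 of 877 miRNAs changed by 1.5 log2 units, a log2 SD of 0.25 within groups, and counting error. Of the changed miRNAs, 95.5% of those with a mean of 482 FPKM or more and 18.8% of the rarer ones were called. Of the calls, 2.66% were false. Every member's fitted change was smaller than 1.5 log2 units, so these rates do not give the power to call the members. For ratios, an exact permutation test took every split of the 12 libraries, in Python 3.11.15 (SciPy 1.17.1, pandas 2.3.3, NumPy 2.4.6), adjusted with statsmodels 0.14.6. Members, lists and ratios were chosen with earlier results of these data known. Named miRNAs were the members, the other arms, up to 3 most like miR-181a-5p, and list members where a result turned on them. Alternatives were a pseudocount of 1 or 482, quantile normalization, filtering on the mean or not at all, a replicate block, scaling by the median of ratios, limma with no trend, an exact permutation test per miRNA, voom, depth as a covariate, zeros kept as values, copies as separate rows, medians, and leaving out each library. Chosen after seeing the data were leaving out the deepest library of each age, the ratio to miR-181a-5p over all miRNAs, and matching the arms of miR-142a to their names in the table.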

Additional observations from a re-analysis of the deposited data

Results flagged for a closer look

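Dixon's test, applied to 30 sets of 6 libraries, singled out 6 values as far from the rest. About 1.5 would be singled out by chance if the sets were independent and normally distributed. The sets share libraries, and the same missing read enters both a level and a ratio, so 6 cannot be weighed against 1.5. All levels here are log2(FPKM + 48.2), and 5.59 is the value for no read. For miR-181a-5p, aged replicate 6 had 17.7, below the 17.99 to 18.1 of the rest of its group. Aged replicate 5, the shallowest library, had no read of miR-181a-1-3p (5.59 against 8.43 to 9.21), of miR-181b-2-3p (5.59 against 6.24 to 6.57) or of miR-181c-3p (5.59 against 7.98 to 8.83). In the same library the log2 ratio of miR-181a-1-3p to miR-181a-2-3p was -9.46 against -6.81 to -6.0. For miR-181b-1-3p, young replicate 5 had 7.40, above the 5.59 to 5.82 of the rest of its group, from 1 read.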

How the results depend on the processing

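In 26 alternative fits, 0 of the 6 members had an adjusted p under 0.05 (the lowest was 0.0953, for miR-181c-5p with median-of-ratios scaling). miR-181b-5p, miR-181c-5p, miR-181d-5p, miR-181a-1-3p and miR-181a-2-3p stayed below 0 in all of them, with ranges of -0.53 to -0.32 for miR-181c-5p and -2.12 to -0.50 for miR-181a-1-3p. miR-181a-5p turned from 0.05 to -0.038 without the deepest library of each age, and leaving out single libraries gave -0.040 to 0.11 (below 0 without young replicate 3 or 6). The number of miRNAs called over the table was 14, and it was 6 with a pseudocount of 1, 6 with zeros kept as values, 7 without a filter, 8 with a filter on the mean, 8 with depth as a covariate and 6 to 15 without single libraries. The exact permutation test per miRNA, whose smallest p is 0.00216, called 0 after adjustment (lowest adjusted p 0.0803) and had 66 at an unadjusted p under 0.05, where limma had 14 and 62. Members with an unadjusted p under 0.05 went from 2 to 1 with a pseudocount of 1, zeros kept as values or voom. The member lost was miR-181a-1-3p with that pseudocount or with zeros kept as values, and miR-181c-5p with voom. Without single libraries the number of such members was 1 to 3. It was also 3 with median-of-ratios scaling, where miR-181b-5p was added (log2 change -0.25). With copies as separate rows it was 3 as well, by the second row of miR-181b-5p (log2 change -0.31). Under quantile normalization it stayed at 2, with miR-181b-5p (log2 change -0.27) in place of miR-181a-1-3p (-0.96). Whether miR-181b-5p was among these members therefore depended on the processing. The ratio of miR-181c-5p to miR-181a-5p stayed at -0.45 but was not called in limma over all miRNAs or with the replicate block, where the exact p of 0.0312 was the smallest 6 pairs can give and could pass the adjustment only if more ratios had reached it, and gave -0.51 to -0.37 without single libraries. That of miR-181b-5p to miR-181a-5p gave -0.35 to -0.22 and that of miR-181a-1-3p to miR-181a-2-3p -1.22 to -0.52, with -2.01 at a pseudocount of 1 and -0.39 at one of 482. Same-numbered samples did not deviate together (correlations of -0.188 to 0.126 in 6 pairs, and 0 young libraries correlated best with their own number), and with the replicate block the number called over the table was 14. The rare arms turned sign: miR-181b-1-3p was 0.56 with a pseudocount of 1, 0.54 with zeros kept, and -0.16 to 0.26 without single libraries; miR-181c-3p was 0.0060 with the pseudocount of 482, 0.13 with quantile normalization, 0.29 with voom, and -0.31 to 0.34 without single libraries. The cause of these changes was not tested. miR-181a-1-3p rested on 0 to 66 reads per library, which limits its precision. Medians changed the levels by less than the SD, and the higher of 2 copy rows alone held 129504 and 131587 FPKM of miR-181a-5p and 11694 and 9699 FPKM of miR-181b-5p in young and aged muscle.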
